A study of Mus musculus with 5 samples.

Results

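The genes for the subunits of the GABA, glutamate and nicotinic acetylcholine receptors were examined in RNA sequencing of 5 mouse cell lines. They were taken by gene symbol alone: the Gabr and Gabbr genes of the GABA receptors, the Gria, Grik, Grin and Grm genes of the glutamate receptors and the Chrn genes of the nicotinic receptors. This gave 61 of the 21437 genes measured, namely 19 GABA-A, 2 GABA-B, 4 AMPA, 5 kainate, 7 NMDA, 8 metabotropic glutamate and 16 nicotinic subunit genes.

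GABA-A and nicotinic receptors belong to the cys-loop family, in which subunits of several kinds (alpha, beta, gamma, delta and others) surround a pore for chloride or for cations, whereas AMPA, kainate and NMDA receptors are cation channels built from glutamate receptor subunits. GABA-B and metabotropic glutamate receptors have no pore and signal through G proteins. The mixture of subunits that a cell makes sets the affinity, speed and ion selectivity of its receptors, and in the anterior pituitary such channels can change the electrical activity and calcium entry that drive hormone release.

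The study asked how RNA levels in model gonadotrope lines relate to the chromatin state of the gonadotropin genes. αT1–1, αT3–1, LβT2 and TαT1 (aT1-1, aT3-1, LbT2 and TaT1 in the labels) were derived from tumors of CB6F1/J mice with a transgene for the SV40 T-antigen, and which promoter drives it is not given in the sources used here. αT1–1 is labelled an immature gonadotrope line of embryonic stage and is described as a progenitor of gonadotropes and thyrotropes. αT3–1 is labelled an intermediate gonadotrope line of embryonic stage, LβT2 a mature gonadotrope line and TαT1 a mature thyrotrope line. NIH3T3 (NIH-3T3), an embryonic fibroblast line from Swiss mice, is the negative control. All 5 were grown in DMEM with fetal bovine serum and were not treated. Each line is a single immortalized culture model, with no pituitary tissue beside it.

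The values are RPKM, reads scaled by transcript length in kilobases and by the number of mapped reads. There is 1 column per line, so no difference could be tested, and neither an SD nor a p-value is given. The read totals recovered from the columns lay between about 18661000 and 20687000 reads in the pituitary lines, against 14246000 reads in NIH3T3. Intervals in parentheses are exact 95% Poisson intervals on the reads recovered for 51 of the 61 genes and cover counting error only. A level under 1 RPKM is called low here, and a difference of 2 on the log2(RPKM + 1) scale is called 4-fold, among genes that reached 1 RPKM in either line. The hormone genes followed the labels: Cga was at 603 RPKM or more in the 4 pituitary lines and at 0.102 RPKM in NIH3T3, Lhb was at 23.3 RPKM in LβT2 and at most 0.414 RPKM in the other 4 lines, and Tshb was at 58.5 RPKM in TαT1 and at most 0.383 RPKM in the other 4. The 5 listed fibroblast genes summed to 3.59 to 23.6 RPKM in the pituitary lines, against 4686 RPKM in NIH3T3.

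Receptor subunit genes were sparse in every line, and a few were abundant. Of the 61 genes, 14 reached 1 RPKM in αT1–1 (23.0%), 18 in αT3–1 (29.5%), 16 in LβT2 (26.2%), 21 in TαT1 (34.4%) and 3 in NIH3T3 (4.92%). Among all genes, 50.1% reached this level in αT1–1, 53.4% in αT3–1, 51.4% in LβT2, 50.5% in TαT1 and 44.8% in NIH3T3. The summed level of the 61 genes was 233 RPKM in αT1–1, 153 RPKM in αT3–1, 329 RPKM in LβT2, 242 RPKM in TαT1 and 17.2 RPKM in NIH3T3. In these bulk samples, fewer cells with a transcript and less of it per cell cannot be told apart.

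Over the 5 lines, 29 of the 61 genes reached 1 RPKM somewhere, 13 reached 10 RPKM and 6 were at 0 in every line. Only 8 reached 1 RPKM in all 4 pituitary lines, among them the GABA-A subunit gene Gabrd, the GABA-B gene Gabbr1, the kainate genes Grik3 and Grik5, the NMDA genes Grin1 and Grin2d, and the nicotinic gene Chrnb2. Another 9 reached it in a single line. LβT2 had the most genes at 0 among the pituitary lines, 28 of 61, against 15 in αT1–1, 18 in αT3–1 and 10 in TαT1, and NIH3T3 had 49.

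**Figure D1:**
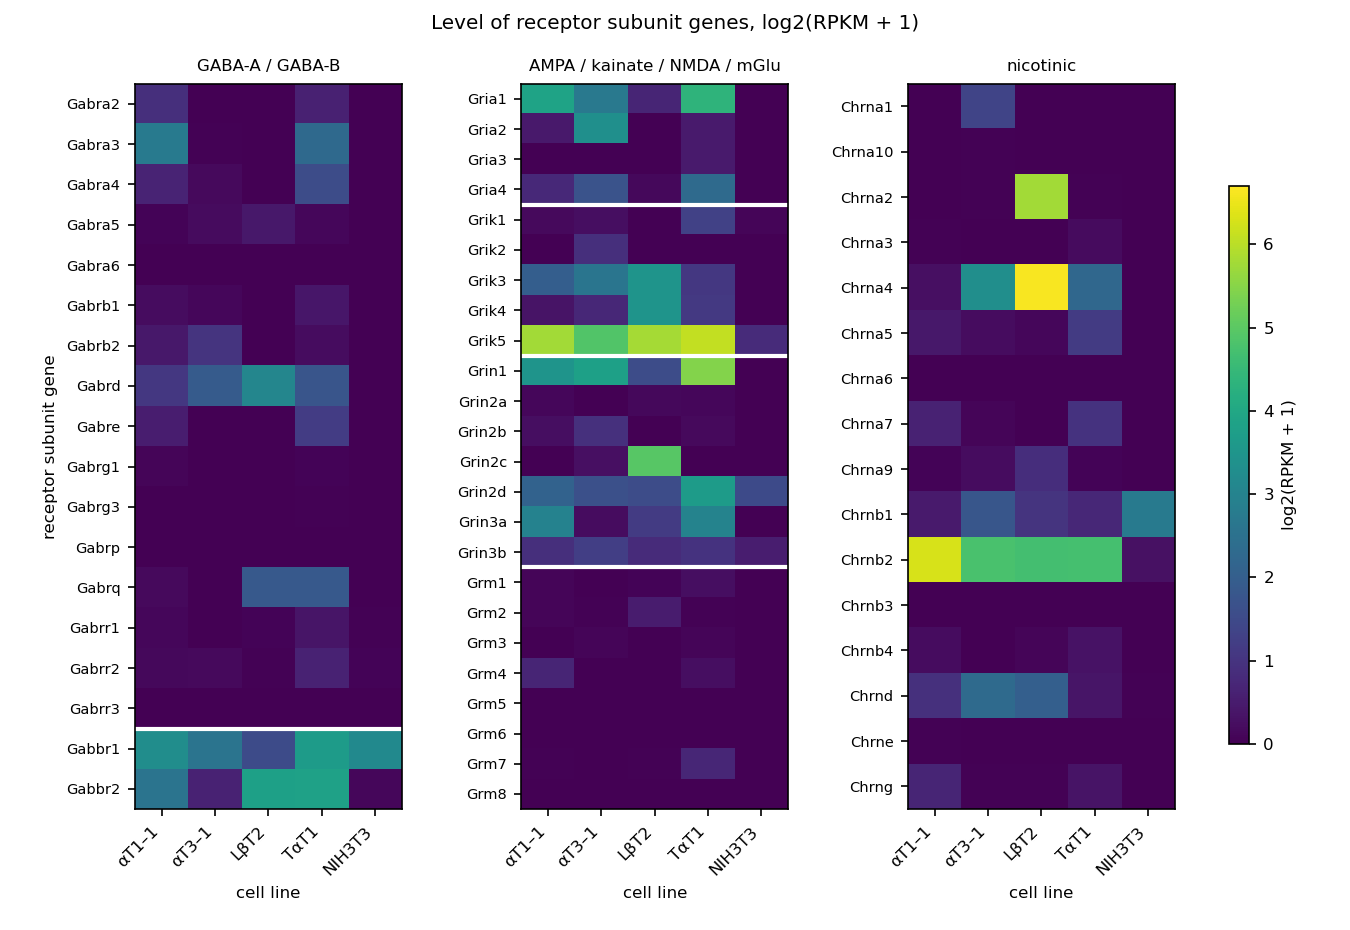
Level of 58 of the 61 receptor subunit genes (y axis) in the 5 cell lines (x axis), as color on the log2(RPKM + 1) scale, with white lines between receptor classes. Most cells are dark, 46 of the 58 genes are at 0 in NIH3T3, and the brightest cells are Chrna4 in LβT2 (98.4 RPKM), Chrnb2 in αT1–1 (77.7 RPKM) and Grik5 in TαT1 (67.4 RPKM).

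GABA-A receptors are the fast chloride channels of GABA, and most contain alpha, beta and a gamma or delta subunit. The alpha subunits, which form part of the GABA binding site, differed from line to line. Gabra3 was at 5.61 RPKM in αT1–1 (5.09 to 6.17) and 3.90 RPKM in TαT1 (3.45 to 4.39), against 0.0259 RPKM in αT3–1, which was 2 reads, and 0 in LβT2 and NIH3T3. Gabra4, whose product is found outside synapses with the delta subunit, was at 0.587 RPKM in αT1–1, 0.129 RPKM in αT3–1, 0.0130 RPKM in LβT2, 1.93 RPKM in TαT1 and 0 in NIH3T3. Gabra3 and Gabra4 thus had different orders of the lines, with Gabra3 higher in αT1–1 than in TαT1 and Gabra4 highest in TαT1. Gabra5 was highest in LβT2, at 0.361 RPKM (0.210 to 0.577; 17 reads), against 0.0391 RPKM in αT1–1, 0.153 RPKM in αT3–1, 0.0840 RPKM in TαT1 and 0 in NIH3T3.

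Gabrd, for the delta subunit of receptors outside synapses, was at 1.13 RPKM in αT1–1 (0.818 to 1.52), 2.80 RPKM in αT3–1 (2.30 to 3.38), 7.36 RPKM in LβT2 (6.49 to 8.31), 2.40 RPKM in TαT1 (1.92 to 2.97) and 0 in NIH3T3 (0 to 0.138). LβT2 was the highest line for Gabrd, 6.51-fold above αT1–1 in reads (4.70 to 9.21, exact binomial 95% interval), and the intervals of αT3–1 and TαT1 overlap. The difference between LβT2 and αT1–1, 1.97 on the log2(RPKM + 1) scale, lies just under the 4-fold threshold.

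The minor subunits epsilon and theta reached 1 RPKM in TαT1. Gabre, for the epsilon subunit, was at 0.443 RPKM in αT1–1 (0.286 to 0.653), 1.29 RPKM in TαT1 (1.00 to 1.64) and 0 in αT3–1, LβT2 and NIH3T3. Gabrq, for the theta subunit, was at 0.124 RPKM in αT1–1, 2.65 RPKM in LβT2 (2.16 to 3.23), 2.65 RPKM in TαT1 (2.16 to 3.23) and 0 in αT3–1 and NIH3T3. LβT2 and TαT1 cannot be separated for Gabrq at this depth. Another 11 GABA-A genes stayed under 1 RPKM in every line, with Gabrb2 highest at 0.999 RPKM in αT3–1, and Gabra6 and Gabrr3 were at 0 in all 5 lines.

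Many GABA-A genes stand next to each other in the genome, and such neighbors did not always share a pattern. In the RefSeq annotation of GRCm38.p6, Gabra3 and Gabrq follow each other on the X chromosome with no other protein-coding gene between them, and they parted in LβT2, where Gabra3 was at 0 and Gabrq at 2.65 RPKM. Gabra4 and Gabrb1, neighbors on chromosome 5, were alike. Both were highest in TαT1, at 1.93 and 0.314 RPKM, and next in αT1–1, at 0.587 and 0.159 RPKM.

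GABA-B receptors pair a GABA-binding subunit, from Gabbr1, with a subunit that couples to G proteins, from Gabbr2. Gabbr1 was at 8.73 RPKM in αT1–1, 4.99 RPKM in αT3–1, 1.91 RPKM in LβT2, 11.8 RPKM in TαT1 and 8.01 RPKM in NIH3T3, with no reads recovered. It was the only subunit gene at 5 RPKM or more in NIH3T3 besides Chrnb1. Gabbr2 was at 4.96 RPKM in αT1–1 (4.48 to 5.46), 0.568 RPKM in αT3–1 (0.418 to 0.756), 12.9 RPKM in LβT2 (12.1 to 13.8), 13.3 RPKM in TαT1 (12.5 to 14.2) and 0.0878 RPKM in NIH3T3 (0.0285 to 0.205). LβT2 and TαT1 overlap for Gabbr2, and LβT2 was 22.8-fold above αT3–1 in reads (17.0 to 31.2). Both GABA-B genes therefore reached 1 RPKM in αT1–1, LβT2 and TαT1, and αT3–1 and NIH3T3 had Gabbr1 alone at that level.

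AMPA receptors carry fast glutamate transmission, and the GluA2 subunit, from Gria2, makes them impermeable to calcium once its RNA is edited. Gria1 was at 13.8 RPKM in αT1–1 (12.9 to 14.8), 5.49 RPKM in αT3–1 (4.91 to 6.11), 0.612 RPKM in LβT2 (0.421 to 0.859), 19.6 RPKM in TαT1 (18.5 to 20.8) and 0 in NIH3T3 (0 to 0.0896). Gria2 was at 0.376 RPKM in αT1–1 (0.286 to 0.485), 9.15 RPKM in αT3–1 (8.69 to 9.63), 0 in LβT2 (0 to 0.0255), 0.390 RPKM in TαT1 (0.296 to 0.506) and 0 in NIH3T3 (0 to 0.0334). Gria4 was at 0.715 RPKM in αT1–1 (0.574 to 0.880), 2.30 RPKM in αT3–1 (2.05 to 2.58), 0.113 RPKM in LβT2 (0.0603 to 0.194), 4.0 RPKM in TαT1 (3.65 to 4.38) and 0 in NIH3T3 (0 to 0.0421). The leading subunit was Gria1 in αT1–1 (92.7% of the 4 genes' summed level) and TαT1 (80.4%), and Gria2 in αT3–1 (54.0%), where it was 24.3-fold above αT1–1 in reads (18.8 to 32.1). No AMPA subunit gene reached 1 RPKM in LβT2, whose sum was 0.725 RPKM, against 16.9 RPKM in αT3–1 and 14.9 RPKM in αT1–1. Gria3 was highest in TαT1, at 0.388 RPKM, and all 4 genes were at 0 in NIH3T3.

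Kainate receptors combine the low-affinity subunits GluK1 to GluK3 with the high-affinity subunits GluK4 and GluK5. Grik5 led in every line, at 53.3 RPKM in αT1–1 (51.7 to 55.0), 28.4 RPKM in αT3–1 (27.2 to 29.5), 54.6 RPKM in LβT2 (52.9 to 56.4), 67.4 RPKM in TαT1 (65.5 to 69.3) and 0.768 RPKM in NIH3T3 (0.554 to 1.04). Its share of the kainate sum was 73.1% in LβT2, 80.6% in αT3–1, 94.1% in αT1–1 and 94.7% in TαT1. The intervals of LβT2 and αT1–1 overlap, and all 4 pituitary lines lay far above NIH3T3, from 36.9-fold (27.2 to 51.4) in αT3–1 to 87.8-fold (64.8 to 122) in TαT1 in reads.

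GluK4 and GluK5 do not form working channels alone in heterologous cells and need a low-affinity partner. The low-affinity gene with the highest level in αT1–1, αT3–1 and LβT2 was Grik3, at 2.98 RPKM in αT1–1 (2.73 to 3.24), 5.12 RPKM in αT3–1 (4.80 to 5.46), 9.97 RPKM in LβT2 (9.49 to 10.5), 1.10 RPKM in TαT1 (0.950 to 1.28) and 0 in NIH3T3 (0 to 0.0293). Grik4 was at 0.269 RPKM in αT1–1 (0.162 to 0.420), 0.665 RPKM in αT3–1 (0.490 to 0.882), 10.1 RPKM in LβT2 (9.35 to 10.9), 1.17 RPKM in TαT1 (0.924 to 1.46) and 0 in NIH3T3 (0 to 0.0742). Both genes were highest in LβT2, where Grik4 was 15.2-fold above αT3–1 (11.3 to 20.8) and 37.6-fold above αT1–1 (23.9 to 62.8) in reads. Grik1 was at 0.121 RPKM in αT1–1, 0.198 RPKM in αT3–1, 0 in LβT2, 1.46 RPKM in TαT1 (1.19 to 1.78) and 0.0575 RPKM in NIH3T3. TαT1 was the only line with Grik1 at 1 RPKM, where it was above Grik3 though their intervals overlap, and the remaining gene, Grik2, had reads in αT3–1 alone, at 0.853 RPKM (0.618 to 1.15).

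**Figure D2:**
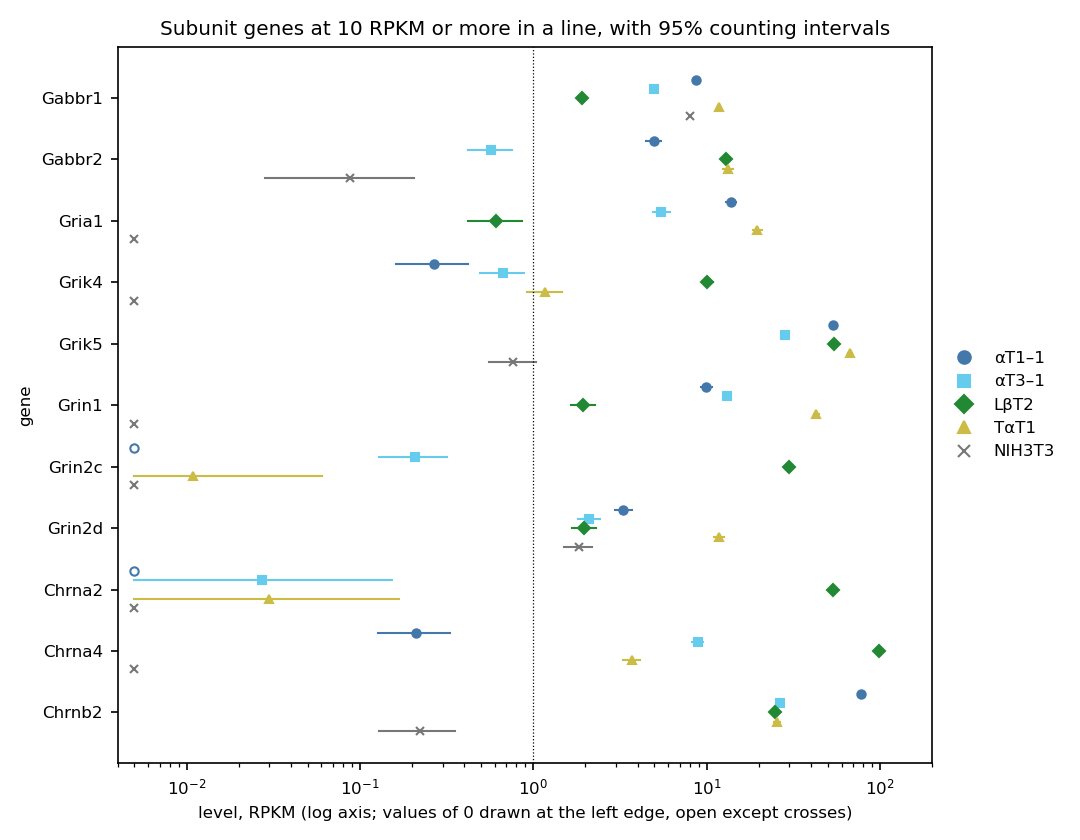
Level in RPKM (log axis) of 11 of the 13 subunit genes that reached 10 RPKM, with exact 95% Poisson intervals where reads were recovered and values of 0 placed at the left edge. LβT2 stands apart to the right for Chrna2 (53.9 RPKM), Chrna4 (98.4 RPKM) and Grin2c (30.0 RPKM), and NIH3T3 lies at the far left for all genes drawn except Gabbr1 (8.01 RPKM), Grin2d (1.83 RPKM), Grik5 (0.768 RPKM), Chrnb2 (0.222 RPKM) and Gabbr2 (0.0878 RPKM).

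NMDA receptors need the GluN1 subunit, from Grin1, together with GluN2 or GluN3 subunits. Grin1 was at 9.98 RPKM in αT1–1 (9.32 to 10.7), 13.1 RPKM in αT3–1 (12.4 to 13.9), 1.95 RPKM in LβT2 (1.65 to 2.28), 42.8 RPKM in TαT1 (41.4 to 44.3) and 0 in NIH3T3 (0 to 0.0615). The order of the lines is clear of counting error, with TαT1 22.0-fold above LβT2 in reads (18.7 to 26.0) and LβT2 at 0.149 times αT3–1 (0.125 to 0.176). Of the exon bases of Grin1, 13.5% are shared with a transcript on the other strand, and the libraries do not mark strand.

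The GluN2 subunit that accompanies it differed between LβT2 and the other lines. Grin2c, whose product is known from the cerebellum and glia, was at 30.0 RPKM in LβT2 (28.9 to 31.2), against 0 in αT1–1 (0 to 0.0372), 0.207 RPKM in αT3–1 (0.128 to 0.317), 0.0108 RPKM in TαT1 and 0 in NIH3T3 (0 to 0.0529). It was at least 991-fold above αT1–1 at a floor of 3 reads and 145-fold above αT3–1 in reads (94.5 to 234). Grin2d, for a subunit with slow decay that is prominent early in development, was at 3.31 RPKM in αT1–1 (2.95 to 3.72), 2.11 RPKM in αT3–1 (1.82 to 2.43), 1.97 RPKM in LβT2 (1.68 to 2.30), 11.8 RPKM in TαT1 (11.1 to 12.6) and 1.83 RPKM in NIH3T3 (1.51 to 2.19). The intervals of Grin2d in αT3–1, LβT2 and NIH3T3 overlap, and TαT1 was the highest line, 6.0-fold above LβT2 (5.08 to 7.14). Of the summed GluN2 level, Grin2c was 93.6% in LβT2, and Grin2d was 92.5% in αT1–1, 65.6% in αT3–1 and 98.2% in TαT1. Grin2b reached 0.889 RPKM at most, in αT3–1, and Grin2a stayed under it in every line.

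GluN3 subunits lower the calcium permeability of NMDA receptors. Grin3a was at 6.86 RPKM in αT1–1 (5.82 to 8.03), 0.173 RPKM in αT3–1 (0.0472 to 0.444), 1.25 RPKM in LβT2 (0.816 to 1.83), 6.99 RPKM in TαT1 (5.90 to 8.21) and 0 in NIH3T3 (0 to 0.232). αT1–1 and TαT1 overlap for Grin3a, and αT3–1 was at 0.0252 times αT1–1 (0.00679 to 0.0660). Grin3b was at 0.879 RPKM in αT1–1, 1.37 RPKM in αT3–1, 0.786 RPKM in LβT2, 0.961 RPKM in TαT1 and 0.460 RPKM in NIH3T3. The annotation gives 32.1% of its exon bases also to Tmem259 on the other strand, which was at 98.9 RPKM in αT1–1, 81.0 RPKM in αT3–1, 57.5 RPKM in LβT2, 96.7 RPKM in TαT1 and 130 RPKM in NIH3T3, and the share of Grin3b reads that belong to it was not tested.

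Metabotropic glutamate receptors act through G proteins and were low throughout. None of the 8 Grm genes reached 1 RPKM in any of the 5 lines, and their summed level was 0.778 RPKM in αT1–1, 0.0975 RPKM in αT3–1, 0.529 RPKM in LβT2, 1.16 RPKM in TαT1 and 0.0164 RPKM in NIH3T3. The highest single value was Grm7 in TαT1, at 0.660 RPKM (0.493 to 0.865; 52 reads), against 0.0354 RPKM in αT1–1, 0 in αT3–1, 0.0256 RPKM in LβT2 and 0 in NIH3T3. Grm5 and Grm6 were at 0 in all 5 lines.

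**Figure D3:**
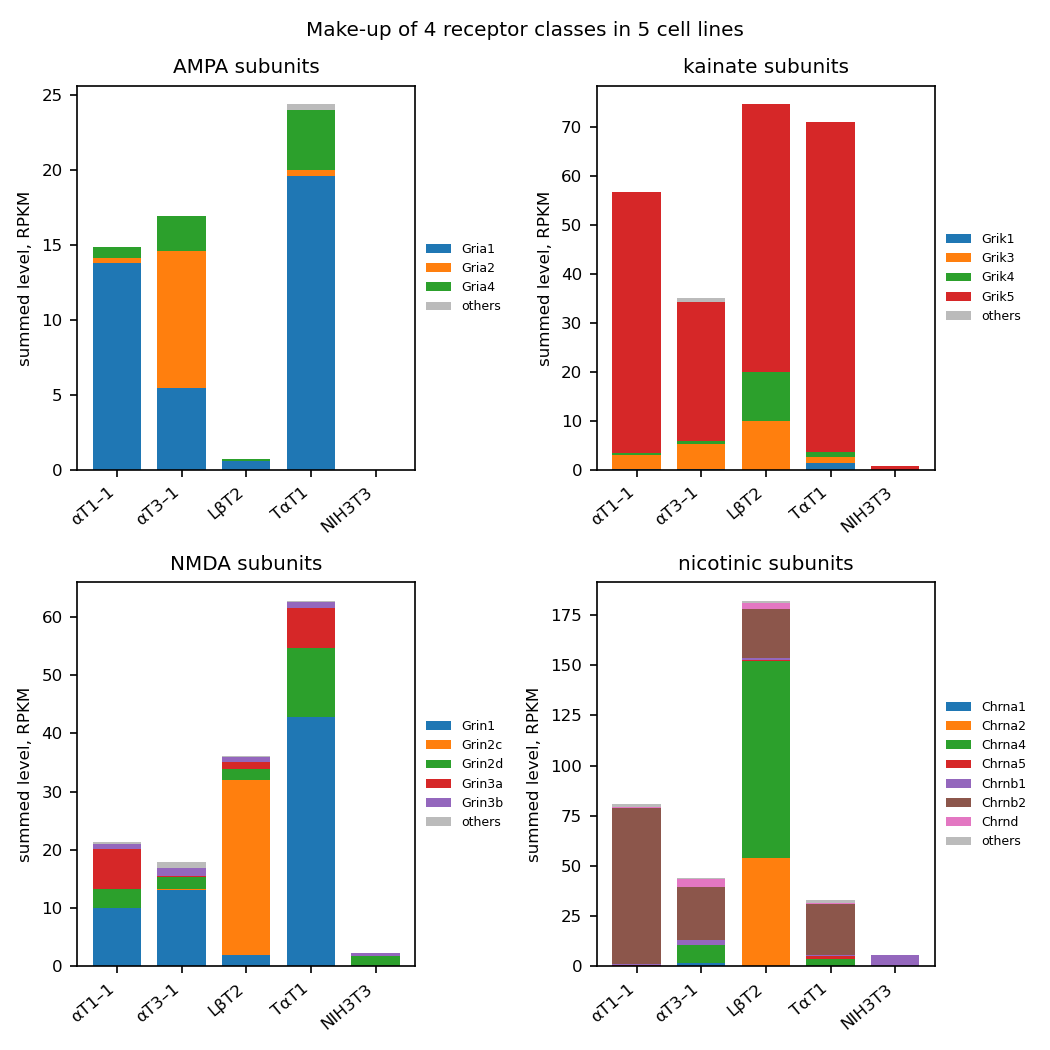
Summed level in RPKM (y axes, each from 0) of the subunit genes of 4 receptor classes in the 5 lines, with the share of each gene that reached 1 RPKM in color and the other genes in light grey. The AMPA bar is near 0 in LβT2 (0.725 RPKM), the NMDA bar of LβT2 is mostly Grin2c (30.0 of 36.1 RPKM), and the nicotinic bar of LβT2 is the tallest, at 182 RPKM.

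Nicotinic receptors of neuronal type combine alpha subunits, such as α4, with beta subunits, most often β2. Chrnb2, for β2, was at 77.7 RPKM in αT1–1 (76.1 to 79.4), 26.6 RPKM in αT3–1 (25.6 to 27.6), 24.7 RPKM in LβT2 (23.8 to 25.7), 25.4 RPKM in TαT1 (24.4 to 26.4) and 0.222 RPKM in NIH3T3 (0.129 to 0.355). It made up 99.0% to 99.9% of the neuronal beta level in the pituitary lines. αT1–1 stood apart as the highest line, 350-fold above NIH3T3 (219 to 601), while TαT1 and LβT2 had a ratio of 1.03 (0.971 to 1.08). Of its exon bases, 16.3% are shared with Adar on the other strand, which was at 33.9 RPKM in αT1–1, 17.6 RPKM in αT3–1, 11.4 RPKM in LβT2, 15.2 RPKM in TαT1 and 14.8 RPKM in NIH3T3. Chrnb2 had 17 reads in NIH3T3, and the share of its reads in each line that belong to Adar was not tested.

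Among the neuronal alpha genes, Chrna4 and Chrna2 were concentrated in LβT2. Chrna4 was at 98.4 RPKM in LβT2 (96.3 to 101), the highest level of any of the 61 genes in any line, against 0.212 RPKM in αT1–1 (0.127 to 0.330), 8.87 RPKM in αT3–1 (8.27 to 9.50), 3.71 RPKM in TαT1 (3.31 to 4.14) and 0 in NIH3T3 (0 to 0.0584). LβT2 was 11.1-fold above αT3–1 (10.3 to 11.9) and 465-fold above αT1–1 (298 to 773) in reads, and αT3–1 was 41.9-fold above αT1–1 (26.7 to 70.0). Chrna2, for the α2 subunit that is rare in rodent brain, was at 53.9 RPKM in LβT2 (51.4 to 56.4; 1773 reads), against 0 in αT1–1 and NIH3T3 and a single read each in αT3–1 (0.0274 RPKM) and TαT1 (0.0301 RPKM). It was at least 641-fold higher in LβT2 than in αT1–1 at a floor of 3 reads. The summed level of the 8 neuronal alpha genes was 1.20 RPKM in αT1–1, 9.31 RPKM in αT3–1, 153 RPKM in LβT2, 6.15 RPKM in TαT1 and 0 in NIH3T3. αT1–1, the line with the most Chrnb2, thus had no neuronal alpha gene at 1 RPKM, and its highest was Chrna7 at 0.567 RPKM (0.363 to 0.844).

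Of the other neuronal alpha genes, Chrna5, for an accessory subunit, reached 1 RPKM in a single line. It was at 0.343 RPKM in αT1–1 (0.206 to 0.535), 0.159 RPKM in αT3–1, 0.0783 RPKM in LβT2, 1.26 RPKM in TαT1 (0.972 to 1.61) and 0 in NIH3T3. Chrna7, for the subunit of homomeric receptors, peaked in TαT1 at 0.964 RPKM (0.682 to 1.32), the highest of the 9 nicotinic genes that stayed under 1 RPKM. Chrna6 and Chrnb3, neighbors on chromosome 8, were at 0 in all 5 lines.

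Genes for subunits of the muscle-type receptor reached 5.65 RPKM at most in any line, and their summed level was highest in αT3–1, at 8.08 RPKM. Chrna1, for the muscle alpha subunit, was at 0.0115 RPKM in αT1–1, 1.59 RPKM in αT3–1 (1.34 to 1.87), 0 in LβT2, 0.0124 RPKM in TαT1 and 0 in NIH3T3. Chrnd, for the delta subunit, was at 0.917 RPKM in αT1–1 (0.689 to 1.20), 3.99 RPKM in αT3–1 (3.50 to 4.52), 3.08 RPKM in LβT2 (2.63 to 3.58), 0.292 RPKM in TαT1 (0.167 to 0.474) and 0.0241 RPKM in NIH3T3. Chrnb1, for the muscle beta subunit, was at 0.391 RPKM in αT1–1 (0.228 to 0.626), 2.47 RPKM in αT3–1 (2.03 to 2.98), 0.997 RPKM in LβT2 (0.713 to 1.36), 0.691 RPKM in TαT1 (0.459 to 0.999) and 5.65 RPKM in NIH3T3 (4.84 to 6.56). αT3–1 was the only line with all 3 of these genes at 1 RPKM, and NIH3T3 had Chrnb1 alone. The remaining muscle-type genes, Chrng (gamma) and Chrne (epsilon), did not reach 1 RPKM in any line. Chrng was at 0.0252 RPKM in αT3–1, a single read, and highest in αT1–1, at 0.617 RPKM. Chrne was at 0 in αT3–1. Of 6 listed skeletal muscle markers, none reached 1 RPKM in αT3–1. Myod1 and Myog had no reads there, whereas Ckm, at 0.854 RPKM, and Acta1, at 0.675 RPKM, had their highest values of the 5 lines there, and Des was at 0.720 RPKM. The part of these markers in the muscle-type subunit levels was not tested. The 6 summed to 2.29 RPKM in αT3–1, against 5.86 RPKM in αT1–1, 1.24 RPKM in LβT2, 1.10 RPKM in TαT1 and 1.07 RPKM in NIH3T3.

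Promoter windows, from 250 bases before to 50 bases after the annotated start, were taken from RefSeq on GRCm38.p6, where 44 of the 61 genes matched 52 windows. The build behind the deposited table is not given in the sources used here. Windows of 5 genes that set the lines apart are printed 5′ to 3′ along the gene, with the match to a motif in capitals. Capitals mark the GC box GGGCGG, bound by Sp factors, in Chrnb2 and Chrna4. They mark the SF1 element AAGGTCA, bound by the gonadotrope factor encoded by Nr5a1, in Grin2c, and the core of the RE1 element of the neuronal repressor REST, CAGCACC and GGACAG with 2 free bases between them and up to 2 mismatches, in Grin1 and Gria2, where it runs in reverse. Both strands were searched, and motifs other than the named one are left in lower case, among them GC boxes of Grin2c at −50, −40 and −35, the last pair of which share a base.
Chrnb2, chr3:89764583-89764882, minus strand: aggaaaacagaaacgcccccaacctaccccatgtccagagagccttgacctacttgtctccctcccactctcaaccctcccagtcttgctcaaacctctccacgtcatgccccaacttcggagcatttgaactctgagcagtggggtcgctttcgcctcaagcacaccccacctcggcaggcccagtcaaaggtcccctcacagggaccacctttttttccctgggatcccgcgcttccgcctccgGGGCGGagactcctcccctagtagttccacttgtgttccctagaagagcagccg
Chrna4, chr2:181039128-181039427, minus strand: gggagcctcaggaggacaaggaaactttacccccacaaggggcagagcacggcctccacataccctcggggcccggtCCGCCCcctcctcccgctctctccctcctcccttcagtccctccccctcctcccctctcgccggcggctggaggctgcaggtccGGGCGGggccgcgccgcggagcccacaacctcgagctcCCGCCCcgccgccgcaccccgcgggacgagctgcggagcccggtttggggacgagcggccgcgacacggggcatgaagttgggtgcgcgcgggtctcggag
Grin2c, chr11:115267194-115267493, minus strand: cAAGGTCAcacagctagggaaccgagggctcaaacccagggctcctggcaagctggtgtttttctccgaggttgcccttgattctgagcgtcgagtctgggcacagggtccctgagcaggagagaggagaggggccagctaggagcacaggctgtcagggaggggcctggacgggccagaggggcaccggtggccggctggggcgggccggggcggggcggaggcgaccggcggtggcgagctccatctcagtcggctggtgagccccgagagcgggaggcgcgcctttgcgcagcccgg
Grin1, chr2:25319138-25319437, minus strand: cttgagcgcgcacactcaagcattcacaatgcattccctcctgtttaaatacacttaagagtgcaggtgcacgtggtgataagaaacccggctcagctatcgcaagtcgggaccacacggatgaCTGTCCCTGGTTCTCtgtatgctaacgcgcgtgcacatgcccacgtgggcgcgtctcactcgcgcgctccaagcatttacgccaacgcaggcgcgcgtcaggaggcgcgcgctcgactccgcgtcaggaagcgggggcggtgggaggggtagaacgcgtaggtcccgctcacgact
Gria2, chr3:80802786-80803085, minus strand: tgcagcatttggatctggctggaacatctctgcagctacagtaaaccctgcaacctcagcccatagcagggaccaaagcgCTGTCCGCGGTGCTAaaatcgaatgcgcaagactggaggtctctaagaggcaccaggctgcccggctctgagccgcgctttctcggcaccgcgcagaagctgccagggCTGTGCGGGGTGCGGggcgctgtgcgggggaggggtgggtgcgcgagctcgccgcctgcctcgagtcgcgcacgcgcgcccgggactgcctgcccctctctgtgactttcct

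The match in Grin2c, the NMDA gene at 30.0 RPKM in LβT2, begins at −249 from the start. Grin2c was the only one of the 44 matched genes with an exact SF1 element, held by 1.92% of the 52 windows, against 4.72% of all 32851 windows. Nr5a1 was at 0.687 RPKM in αT1–1, 162 RPKM in αT3–1, 265 RPKM in LβT2, 0.288 RPKM in TαT1 and 0 in NIH3T3. Grin2c was at 0.207 RPKM in αT3–1, and the part of Nr5a1 in the Grin2c level was not tested. The RE1 core was found in 4 of the 52 windows (7.69%), those of Gabrb1, Gria2, Grik2 and Grin1, against 1.92% of all windows. In Gria2 it occurs at −170 with 1 mismatch and at −62 with 2, and in Grin1 at −126 with 2. These 4 genes were at 0 in NIH3T3, as were 49 of all 61 subunit genes, and Grik2 had reads in αT3–1 alone. The GC box stood in 25 of the 52 windows (48.1%), against 35.7% of all windows, beside a median GC content of 59.5% in the 52 windows and 52.7% in all. The E-box CAGCTG was in 6 of the 52 windows (11.5%), against 16.3% of all windows. Those 6 were of Chrna1, Chrna9, Chrnb4, Chrne, Chrng and Gabrp. The PITX element TAATCC was in 3 of the 52 windows (5.77%), against 7.06% of all. A match says only that the letters are in the window.

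Compared with NIH3T3, the pituitary lines had more subunit genes 4-fold higher than 4-fold lower. In αT1–1, 10 genes were 4-fold higher and 1 lower, of 15 that passed the minimum of 1 RPKM in either line, against 12.6% and 8.09% of all genes tested. In αT3–1, 10 were higher and none lower of 18, against 17.5% and 8.41% of all genes. In LβT2, 10 were higher and none lower of 17, against 14.2% and 7.36%, and in TαT1 11 were higher and none lower of 22, against 12.9% and 7.89%. A gene at 0 in NIH3T3 can pass the minimum only through the pituitary line, where it is then high. Over all 61 genes, the median log2 difference was 0.34 in TαT1, 0.17 in αT1–1, 0.10 in αT3–1 and 0 in LβT2, against 0 over all genes in each comparison. Among all genes that passed the minimum, the median log2 difference from NIH3T3 was 0.28 in TαT1, 0.29 in αT1–1, 0.37 in LβT2 and 0.38 in αT3–1. It lay between −0.08 and 0.05 after median-of-ratios or quantile scaling. Neither scaling turned a 4-fold difference round, which shifts this small could hardly do.

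In all 4 pituitary lines, 3 of the 29 subunit genes that reached 1 RPKM in any line, among them Grik5 and Chrnb2, were 4-fold higher than in NIH3T3, against 4.54% of 13401 genes tested in the same way, and none was 4-fold lower in all 4, against 3.72%. Besides these, the 4-fold higher genes included Gabra3, Gabbr2, Gria1, Grin1 and Grin3a in αT1–1, and Gria1, Gria2, Grik3, Grin1, Chrna4 and Chrnd in αT3–1. LβT2 had Gabrd, Gabbr2, Grik3, Grik4, Grin2c, Chrna2 and Chrna4, and TαT1 had Gabra3, Gabbr2, Gria1, Gria4, Grin1, Grin2d, Grin3a and Chrna4. The gene lower than in NIH3T3 was Chrnb1 in αT1–1, at a log2 difference of −2.26. The 4 comparisons share the NIH3T3 column, and the limit given above for genes at 0 in that column applies here too. The summed level of the 5 measured neuron markers was also higher, at 823 RPKM in αT1–1, 292 RPKM in αT3–1, 223 RPKM in LβT2 and 419 RPKM in TαT1, against 64.6 RPKM in NIH3T3, but its members differed. Nefl alone was 728 RPKM of the sum in αT1–1, and was at 34.0 to 105 RPKM in the other pituitary lines and 0 in NIH3T3. Snap25 was at 8.07 to 61.8 RPKM in the pituitary lines, against 0 in NIH3T3, while Syt1 was at 0 in LβT2 as in NIH3T3 and at 3.86 to 13.6 RPKM in the other 3. In αT1–1, Tubb3 was lower than in NIH3T3, at 48.5 against 64.2 RPKM, and so was Camk2a, which stayed under 1 RPKM in every line. The part of these markers in the differences was not tested.

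Between the gonadotrope lines, αT3–1 and αT1–1 differed in 4 of 21 subunit genes that passed the minimum. Of these, Chrna4 (log2 difference 3.03) and Gria2 (2.88) were 4-fold higher in αT3–1, against 5.41% of all genes tested, and Gabra3 (−2.69) and Grin3a (−2.74) were 4-fold lower, against 2.79%. Gabbr2 lay just short of the threshold, at −1.93. With a pseudocount of 5 there were 0 higher and 0 lower, and at a 2-fold threshold 5 higher and 6 lower. The median over all 61 genes was 0, as over all genes. In each comparison of pituitary lines, here and below, a gene under 1 RPKM in one line can pass the minimum only through the other, where it is higher. Counts set beside the shares of all genes are therefore no measure of enrichment.

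LβT2 and αT3–1 differed in 9 of 24 genes that passed the minimum. Chrna2 (5.74), Grin2c (4.68), Chrna4 (3.33), Gabbr2 (3.15) and Grik4 (2.74) were 4-fold higher in LβT2, which is 5 genes against a background of 6.36% of all genes. Gria2 (−3.34), Grin1 (−2.26) and Gria1 (−2.01) were among the 4 genes that were 4-fold lower, against 6.83%. They encode AMPA receptor subunits and the obligatory NMDA subunit. Gria1 lies just inside the threshold. Chrna2, Grin2c, Gabbr2 and Grik4 were under 1 RPKM in αT3–1 and passed the minimum only through LβT2. Gria1 and Gria2 were under 1 RPKM in LβT2 and passed it only through αT3–1.

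LβT2 and αT1–1 differed in 8 of 20. Chrna4 (6.36), Chrna2 (5.78), Grin2c (4.95) and Grik4 (3.13) were 4-fold higher in LβT2, 4 genes against 6.73% of all genes, and Gria1 (−3.20) and Gabra3 (−2.72) were among the 4 genes that were 4-fold lower, against 5.16%. Chrna2, Chrna4, Grin2c and Grik4 were 4-fold higher in LβT2 against αT3–1 as well as αT1–1, and both comparisons use the LβT2 column. Over all 61 genes the median was −0.03, against 0 over all genes.

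TαT1 and LβT2, the labelled mature lines of the thyrotrope and gonadotrope lineages, differed in 11 of 24. Grin1 (3.89), Gria1 (3.68), Gabra3 (2.29), Gria4 (2.17), Gabbr1 (2.13) and Grin2d (2.11) were 4-fold higher in TαT1, 6 genes against 5.5% of all genes. Chrna2 (−5.73), Grin2c (−4.94), Chrna4 (−4.40), Grik3 (−2.38) and Grik4 (−2.36) were 4-fold lower, 5 genes against 6.55%. The Grin2c level of TαT1 was 0.000361 times that of LβT2 in reads (9.14e-06 to 0.00201), resting on a single read in TαT1.

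**Figure D4:**
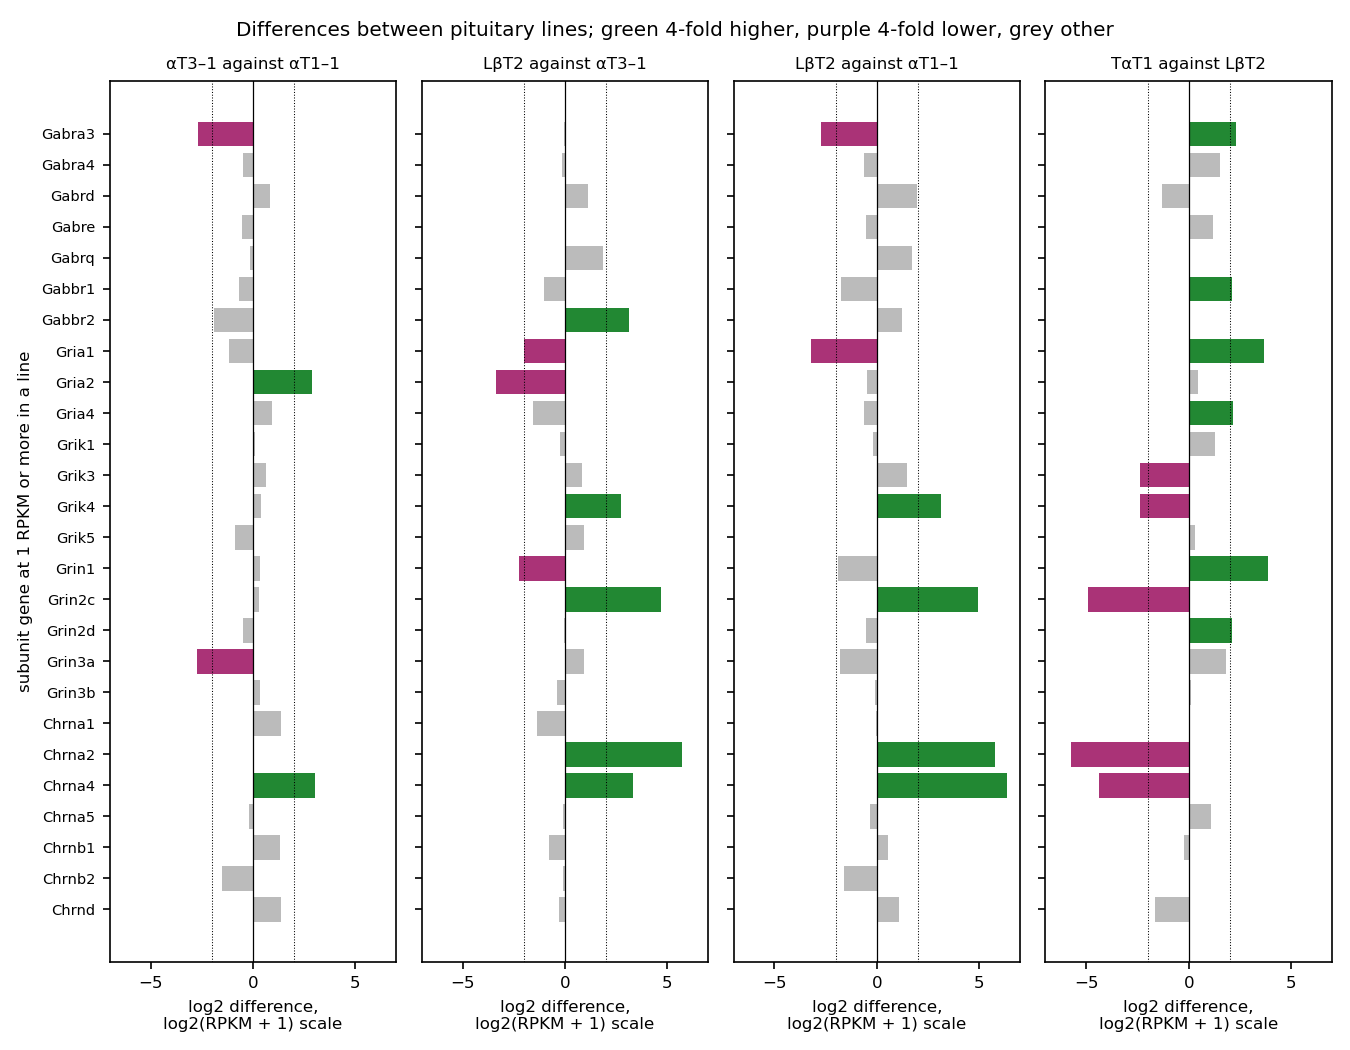
Difference on the log2(RPKM + 1) scale (x axes) of 26 of the 29 subunit genes that reached 1 RPKM (y axis), for 4 comparisons of pituitary lines, with 4-fold higher in green and 4-fold lower in purple. Chrna2, Chrna4, Grin2c and Grik4 are green in both panels of LβT2 against a line of embryonic stage and purple in TαT1 against LβT2, and αT3–1 against αT1–1 has 2 bars of each color.

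Genes that make, move and break down GABA were also read, from a list of 9. Gad2, for the GABA-making enzyme held at vesicles, was at 11.9 RPKM in αT3–1, against 0.193 RPKM in αT1–1, 0 in LβT2, 0.0189 RPKM in TαT1 and 0.0125 RPKM in NIH3T3. Slc32a1, for the transporter that fills vesicles with GABA and glycine, was at 78.7 RPKM in LβT2, against 0 in αT1–1 and αT3–1, 0.0189 RPKM in TαT1 and 0 in NIH3T3. Gad1, for the other GABA-making enzyme, was at 3.23 RPKM in αT3–1 and 1.54 RPKM in TαT1, against 0.0765 RPKM in αT1–1, 0.0829 RPKM in LβT2 and 0 in NIH3T3. LβT2, the line with the vesicular transporter, thus had neither Gad1 nor Gad2 at 1 RPKM. Abat, which starts GABA breakdown, was at 14.7 RPKM in αT1–1, 4.13 RPKM in αT3–1, 29.9 RPKM in LβT2, 8.78 RPKM in TαT1 and 0.0303 RPKM in NIH3T3. Aldh5a1, which completes it, was at 5.64 to 10.8 RPKM in the pituitary lines, against 0.0124 RPKM in NIH3T3. Of the 6 listed genes that passed the minimum between LβT2 and αT3–1, 2 were 4-fold higher in LβT2, against 6.36% of all genes, and 1 was lower, against 6.83%.

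The chloride transporters decide whether opening a GABA-A channel excites or inhibits a cell. Slc12a5 (KCC2), which extrudes chloride in mature neurons, was at 15.4 RPKM in αT1–1, 5.55 RPKM in αT3–1, 1.03 RPKM in LβT2, 18.2 RPKM in TαT1 and 0.0350 RPKM in NIH3T3. Slc12a2 (NKCC1), which imports it, was at 2.08 RPKM in αT1–1, 6.81 RPKM in αT3–1, 2.36 RPKM in LβT2, 3.60 RPKM in TαT1 and 4.25 RPKM in NIH3T3. LβT2 had the lowest Slc12a5 of the pituitary lines, at a log2 difference of −3.02 from αT1–1.

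Of 10 listed genes whose products assemble and anchor GABA-A receptors, 9 reached 1 RPKM in αT1–1, 10 in αT3–1 and in TαT1, 8 in LβT2 and 6 in NIH3T3. Gabarap, a trafficking protein shared with autophagy, was at 188 to 249 RPKM in the pituitary lines, against 193 RPKM in NIH3T3. Clptm1, which limits receptor delivery to the surface, was at 83.7 to 132 RPKM in the pituitary lines, against 94.4 RPKM in NIH3T3, and Gabarapl1 was at 30.9 to 75.6 RPKM, against 62.7 RPKM. Nlgn2, an adhesion protein of inhibitory synapses, was at 49.9 RPKM in αT1–1, 25.0 RPKM in αT3–1, 11.4 RPKM in LβT2, 55.1 RPKM in TαT1 and 10.0 RPKM in NIH3T3. Of the listed genes that passed the minimum, 3 of 9 were 4-fold higher than NIH3T3 in αT1–1 (12.6% of all genes), 3 of 10 in αT3–1 (17.5%), 1 of 8 in LβT2 (14.2%) and 3 of 10 in the thyrotrope line TαT1 (12.9%), and none was lower. In NIH3T3, 2 of the 10 listed genes were at 0, and such genes can pass the minimum only through the pituitary line. Kctd8, an auxiliary subunit of GABA-B receptors, was at 1.30 RPKM in αT1–1, 0.301 RPKM in αT3–1, 14.8 RPKM in LβT2, 1.21 RPKM in TαT1 and 0 in NIH3T3, and Kctd12 reached 3.66 RPKM in TαT1 and at most 1.16 RPKM elsewhere. The auxiliary gene at 1 RPKM or more was thus Kctd8 alone in LβT2, and both in αT1–1 and TαT1.

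Among 13 genes of glutamate transport and metabolism, the vesicular and surface transporters set the lines apart. Slc1a5, a neutral amino acid transporter that carries glutamine, was at 22.0 RPKM in αT1–1, 29.7 RPKM in αT3–1, 5.58 RPKM in LβT2, 34.4 RPKM in TαT1 and 64.5 RPKM in NIH3T3, and the related Slc1a4 was highest in LβT2 at 32.4 RPKM. Glul, for glutamine synthetase, was at 17.8 to 68.9 RPKM in the pituitary lines, against 11.6 RPKM in NIH3T3. Slc17a6, which fills vesicles with glutamate, was at 12.1 RPKM in αT1–1, 13.6 RPKM in αT3–1, 0.0620 RPKM in LβT2, 27.3 RPKM in TαT1 and 0 in NIH3T3. Slc17a7, another vesicular glutamate transporter, was at 2.74 RPKM in αT1–1, 2.34 RPKM in αT3–1, 6.02 RPKM in LβT2, 1.21 RPKM in TαT1 and 7.26 RPKM in NIH3T3. Among the pituitary lines, LβT2 was therefore the lowest for Slc17a6 and the highest for Slc17a7. Slc1a2, a surface transporter known from astrocytes, is named besides the 4 highest because αT3–1 stood apart, at 17.8 RPKM, against 0.741 RPKM in αT1–1, 0.0178 RPKM in LβT2, 1.42 RPKM in TαT1 and 0 in NIH3T3, a choice made after its values were seen. Of the 10 listed genes that passed the minimum between LβT2 and αT3–1, 3 were 4-fold lower in LβT2, against 6.83% of all genes, and none was higher, against 6.36%.

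Genes for auxiliary and scaffold proteins of ionotropic glutamate receptors were read from a list of 25. Grina, a membrane protein named for a glutamate-binding activity, was at 148 to 196 RPKM in the pituitary lines, against 152 RPKM in NIH3T3. Cnih2, an AMPA receptor chaperone, was at 38.9 RPKM in αT1–1, 81.9 RPKM in αT3–1, 11.7 RPKM in LβT2, 57.7 RPKM in TαT1 and 17.5 RPKM in NIH3T3. Dlg4 (PSD-95), the main scaffold of excitatory synapses, was at 63.4 RPKM in αT1–1, 27.7 RPKM in αT3–1, 23.8 RPKM in LβT2, 78.0 RPKM in TαT1 and 15.9 RPKM in NIH3T3. Cacng7, for a transmembrane AMPA receptor regulatory protein, was at 34.8 to 75.2 RPKM in the pituitary lines, against 4.41 RPKM in NIH3T3. LβT2, which had no AMPA subunit gene at 1 RPKM, was the lowest pituitary line for Cnih2, Dlg4 and Cacng7 but kept all of them above 10 RPKM. Other listed genes went both ways. LβT2 was the highest line for Dlg1 (10.5 RPKM), Dlg2 (1.06 RPKM), Dlg3 (15.9 RPKM) and Neto1 (2.23 RPKM). It was the lowest pituitary line for Cacng8 (7.26 RPKM) and Homer3 (30.6 RPKM), among others. Of the 25 listed genes, those 4-fold higher than NIH3T3 were 7 of the 17 that passed the minimum in αT1–1 (12.6% of all genes), 9 of 18 in αT3–1 (17.5%), 7 of 16 in LβT2 (14.2%) and 9 of 17 in the thyrotrope line TαT1 (12.9%), and none was lower. In NIH3T3, 11 of the 25 were at 0, and such genes can pass the minimum only through the pituitary line, so these shares are no measure of enrichment.

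Genes for making acetylcholine were at or near 0. Chat, the synthesizing enzyme, had 0.0172 RPKM in αT3–1 and 0 in the other 4 lines. Slc18a3, the vesicular transporter, was at 0.634 RPKM in αT1–1, 1.58 RPKM in αT3–1, 0.311 RPKM in LβT2, 0.813 RPKM in TαT1 and 0 in NIH3T3. Ache, which breaks acetylcholine down, was at 1.77 RPKM in αT1–1, 1.06 RPKM in αT3–1, 5.01 RPKM in LβT2, 7.41 RPKM in TαT1 and 0.225 RPKM in NIH3T3. The receptor side was better represented: Chrm4, an inhibitory muscarinic receptor, was at 4.98 RPKM in αT1–1, 11.9 RPKM in αT3–1, 43.8 RPKM in LβT2, 3.90 RPKM in TαT1 and 0 in NIH3T3. Like Chrna4, it was highest in LβT2, next in αT3–1 and at 0 in NIH3T3. Unlike Chrna4, at 0.212 RPKM in αT1–1 and 3.71 RPKM in TαT1, it was higher in αT1–1 than in TαT1. Of the other 4 muscarinic genes only Chrm3 reached 1 RPKM, in TαT1 at 1.17 RPKM.

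Of 9 measured genes for nicotinic receptor assembly and clustering, 2 reached 1 RPKM in NIH3T3 and 4 or 5 in each pituitary line. Agrn, the nerve-derived signal for clustering at muscle, was at 8.20 RPKM in αT1–1, 3.96 RPKM in αT3–1, 1.16 RPKM in LβT2, 6.77 RPKM in TαT1 and 29.8 RPKM in NIH3T3. Lynx1, which binds nicotinic receptors and dampens them, was at 3.08 RPKM in αT1–1, 24.1 RPKM in αT3–1, 6.81 RPKM in LβT2, 0.389 RPKM in TαT1 and 21.6 RPKM in NIH3T3. Lrp4, the agrin receptor, was highest in αT1–1 at 21.5 RPKM, and Ric3, a chaperone of nicotinic receptors, was at 3.89 to 10.5 RPKM in the pituitary lines, against 0.0111 RPKM in NIH3T3. αT3–1, which had the most muscle-type subunit RNA, had 0.0662 RPKM of Lrp4, and the clustering gene Rapsn was at 0.507 RPKM there.

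Of 7 genes of other cys-loop receptors, 4 led. Htr3a, for a serotonin-gated channel, was at 4.17 RPKM in αT1–1, 0.789 RPKM in αT3–1, 13.8 RPKM in LβT2, 10.4 RPKM in TαT1 and 0 in NIH3T3. Glrb, for the beta subunit of glycine receptors, was at 8.70 RPKM in αT1–1, 11.2 RPKM in αT3–1, 0 in LβT2, 2.13 RPKM in TαT1 and 0 in NIH3T3. Glrb was thus at 0 in LβT2 and NIH3T3 and above 1 RPKM in the other 3 lines. Glra3, a glycine receptor alpha subunit, reached 2.45 RPKM in TαT1, and Glra4 stayed at or under 0.137 RPKM.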

How the data were processed

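Total RNA of 5 cell lines was made into unstranded TruSeq RNA v2 libraries, a pair per line, and sequenced as 36 bp single-end reads, which the authors aligned to the mouse genome with CASAVA. The deposited values are RPKM, computed by the authors before deposit. Neither the genome build nor the annotation, the treatment of reads with several alignments or the way the libraries of a line were combined is given in the sources used here. The table has 21476 entries, of which 25 with a date in place of a symbol were left out, and 9 repeated symbols were reduced to their entry of higher mean, leaving 21437 genes in 5 columns.

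Values under 1 RPKM were whole multiples, to within 0.05, of a step taken as the mean coverage per base in the fifth decimal, which gives the read total of each column. For each gene, the shortest length from 150 up to 15000 bp that turned its 5 values into whole reads was sought, and accepted up to 1.05 times the exons of GENCODE release M21. This gave reads for 51 of the 61 genes. A further 6 were at 0 everywhere, and 4, among them Gabrb2, Gabbr1 and Grm3, were not recovered. True reads may be a multiple of those found, and the intervals are then too wide. Intervals are exact Poisson for levels and exact binomial for ratios of reads, at 95%, and cover counting error only. For a fold, 0 reads were set to 3, and no fold is given where the other line had 3 reads or fewer.

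Differences are of log2(RPKM + 1), which understates changes of low genes. The members, the partner and marker lists and the thresholds were chosen with earlier results of these data known. Members that reached 1 RPKM are named, except 3 that enter the counts but are not reported here, with the highest of the others in each class, and up to 4 highest genes of each partner list plus Slc12a2 and Slc12a5. Gabra5, Gabra6, Gabrr3, Gabrb1, Grm5, Grm6, Chrna6, Chrnb3, Chrne, Chrng, Grin2a, Slc1a2, Gad1, Slc17a7 and Rapsn were named after their values were seen. So were Dlg1, Dlg2, Dlg3, Neto1, Cacng8 and Homer3. Rbfox3 and Map2 were not used here. Pseudocounts, minimums and thresholds were varied, and median-of-ratios scaling and quantile normalization were tried. The steps were tested on simulated data. Python 3.11.15, NumPy 2.4.6, pandas 2.3.3, SciPy 1.17.1 and matplotlib 3.10.9 were used.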

Additional observations from a re-analysis of the deposited data

Results flagged for a closer look

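Gabbr1, for the GABA-binding subunit of GABA-B receptors, differed from NIH3T3 in opposite directions in different pituitary lines. On the log2(RPKM + 1) scale the difference was −1.63 in LβT2 and −0.59 in αT3–1, and it was 0.11 in αT1–1 and 0.50 in TαT1. With 1 column per line this difference was not tested, all 4 values share the NIH3T3 column, and no reads were recovered for this gene.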

How the results depend on the processing

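Of 116 counts of subunit genes recomputed under alternatives, 80 stayed within 1.5 times the reported count and 36 did not. A minimum of 2 RPKM was tried only on the 5 counts of genes present per line, which stayed within that range. The 16 counts with no minimum could not move. A difference of 2 on the log2(RPKM + 1) scale already needs a level above 1 RPKM. At 0.5 RPKM, 22 genes were present in αT1–1, and after quantile normalization 5 reached 1 RPKM in NIH3T3.

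With a pseudocount of 5, the genes 4-fold higher than in NIH3T3 numbered 5 in LβT2, 4 in TαT1, 3 in αT1–1 and 3 in αT3–1, and 0 were lower in αT1–1. That pseudocount left 0 higher and 0 lower in αT3–1 against αT1–1, 3 higher and 0 lower in LβT2 against αT3–1, 1 lower in LβT2 against αT1–1, and 2 higher and 3 lower in TαT1 against LβT2. With a pseudocount of 0.1, 2 genes were lower in LβT2 than in NIH3T3, and 20 were higher and 1 lower in TαT1 than in NIH3T3. It gave 5 higher and 4 lower in αT3–1 against αT1–1, 7 lower in LβT2 against αT3–1, 7 lower in LβT2 against αT1–1 and 12 higher in TαT1 against LβT2. At a 2-fold threshold, 2 genes were lower in LβT2 than in NIH3T3, 20 were higher and 1 lower in TαT1 than in NIH3T3, 5 were higher and 6 lower in αT3–1 against αT1–1, 8 were lower in LβT2 against αT3–1, 9 were higher and 8 lower in LβT2 against αT1–1, and 12 were higher in TαT1 against LβT2.

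Median-of-ratios scaling gave 1 gene lower in LβT2 and 1 in TαT1 than in NIH3T3, and quantile normalization gave 2 and 1, with 4 lower in αT3–1 against αT1–1. Over all genes, the share of 4-fold calls that were higher moved by over 10 percentage points in 2 comparisons. It was 67.6% in αT3–1 against NIH3T3, 57.4% after median-of-ratios scaling and 52.0% after quantile normalization. It was 65.9% in LβT2 against NIH3T3, 55.7% after median-of-ratios scaling and 53.6% after quantile normalization. Of 928 recomputed differences of the 29 genes that reached 1 RPKM, none of the 74 4-fold differences changed direction, and 19 smaller ones did, at most 0.70 in size. A different pseudocount cannot change a direction, so only the median-of-ratios and quantile values among the 928 could. Neither scaling shifted the medians over all genes by anything near a 4-fold difference, so this says little about the 4-fold differences. No paired analysis was possible because there is 1 column per line, and for the same reason no replicate could be omitted. Depth limits levels under about 0.1 RPKM, where an interval spans a few reads.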
